A study of Mus musculus with 9 samples.

Results

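Heat shock proteins and their DnaJ co-chaperones were measured in muscle satellite cells, the resident stem cells of the tissue, of mice deficient in Bmi1 (KO) and of wild type mice (WT). The members were chosen by gene name alone: every non-control probe named for an HSP70 (Hspa), a small heat shock protein (Hspb or Cryab), an HSP90, a DnaJA, DnaJB or DnaJC protein, the chaperonins Hspd1 and Hspe1, the HSP70 relative Hsph1, or the regulators Hsf1, Hsf2 and Bag3. This gave 105 probes of the 55681 on the array, which stand for 75 genes, and each gene was read from the probe with the highest mean signal. Of the 75 genes, 73 passed the filter on dim probes and were tested among 28364 genes in all.

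The KO samples came from Bmi1-deficient mice and the WT samples from their wild type counterparts, both of the FVB strain, male and 2 months old. The labels do not say which part of Bmi1 was deleted, or whether it was missing from every tissue. Cells were sorted from dissociated muscle as positive for integrin alpha-7 and CD34, while CD31, CD45, CD11b and Sca1 had to be absent, and the small amounts of RNA were amplified by whole transcriptome amplification before labelling with Cy3. The titles number the 6 KO arrays as biological replicates, while their descriptions read as 3 pairs of repeats. Arrays of such a pair correlated at 0.994 to 0.996, and all other pairs of arrays at 0.962 to 0.979. The descriptions were followed and each pair was averaged, which left 3 KO samples and 3 WT samples.

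Heat shock proteins are molecular chaperones: they hold other proteins while these fold, move across membranes or are passed on for degradation. HSP70 proteins do so in cycles of ATP binding and release that a DnaJ protein starts and a nucleotide exchange factor ends, HSP90 takes over late folding steps of kinases and receptors, chaperonins enclose a protein in a chamber, and small heat shock proteins keep damaged proteins soluble without ATP. Heat and other protein damage release heat shock factor 1 (Hsf1), which switches on many of these genes. In muscle, where filaments are under strain, small heat shock proteins and Bag3 are known for the upkeep of the sarcomere.

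Signal was even across the arrays: between 71.9% and 75.8% of non-control spots were well above background and 0 were saturated. The arrays lay on 2 slides, with 3 KO and 2 WT arrays on slide 1 and 3 KO arrays and 1 WT array on slide 2. Each KO sample had an array on both slides. WT samples 1 and 3 were on slide 1 only and WT sample 2 on slide 2 only. All 14 satellite cell markers, Pax7 among them, were well above background on every array, as the cell type label requires. The Bmi1 transcript had log2 signals of 0.58, 0.71 and 0.48 in the samples labelled KO and 0.40, 0.61 and 0.48 in those labelled WT, a difference of 0.10 ± 0.13 (SE, limma adjusted p = 0.849). This probe checks the labels only if it lies in the deleted part, which is not known. One KO array is wild type by its genotype field but KO by its title, source and description, and it was kept in KO. Cdkn2a, the cell cycle inhibitor locus that Bmi1 is known to silence, was higher in KO by 3.28 ± 0.21 (SE, limma adjusted p = 0.0156) and its groups did not overlap. Over all genes, 40 passed a limma adjusted p of 0.05 (Benjamini and Hochberg), 37 of them higher and 3 lower in KO. The labels do not tie samples to separate animals, so each p measures only the spread between these samples.

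Markers of other cells in muscle are given here because several chaperones are known from those cells, and of all these markers only Pdgfrb passed the adjusted threshold (limma adjusted p = 0.0377). The 12 endothelial markers were all above WT (median log2 difference 0.96), as were all 10 pericyte and smooth muscle markers (0.65) and 10 of 11 mesenchymal markers (0.92). Of the Schwann cell markers, 6 of the 8 tested were above WT, with a median of 0.59. Each list was also summed, in units of each array's 75th percentile. The endothelial markers came to 5.71 to 8.72 in KO samples and 4.25 to 5.41 in WT samples, with Robo4 not well above background in WT. Tek was the largest part of the endothelial sum, with a difference of 0.17. The mural markers summed to 64.5 to 68.8 in KO samples and 53.6 to 60.1 in WT samples, and each of them was above background on some array of both groups. Most of the mural sum was Acta2 and Notch3, with differences of 0.20 and 0.10. The mesenchymal markers summed to 171 to 191 in KO samples and 121 to 135 in WT samples, with Pdgfra not well above background in WT. Robo4 and Pdgfra thus passed the filter on dim probes through KO arrays alone, and both are counted above WT. The 8 Schwann cell markers summed to 63.0 to 66.7 in KO samples and 50.5 to 60.6 in WT samples. Of the 9 blood cell markers tested, 7 were below WT (median -0.07), with sums of 120 to 134 in KO samples and 123 to 143 in WT samples. Itgam, the gene of CD11b, made up most of these sums, although CD11b had to be absent in the sort. Its mean log2 signal was 6.94 in KO and 7.02 in WT, a difference of -0.08. Mitosis genes went the other way, with all 18 below WT (median -1.0) and sums of 19.5 to 41.9 in KO samples and 52.8 to 65.7 in WT samples. Muscle fibre markers were mixed, 6 above and 7 below WT of the 13 tested. They summed to 39.4 to 51.0 in KO samples and 36.9 to 49.9 in WT samples, and KO sample 1 stood out with a median of 0.84 above the WT mean of each gene. The part of these cells and states in the values of the chaperones was not tested.

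No heat shock protein or DnaJ gene differed between KO and WT satellite cells beyond the threshold. Of the 73 members tested, none passed an adjusted p of 0.05 (limma, 0 called, where 0.141% of all genes were, 0.13% higher and 0.0106% lower), and the lowest adjusted p was 0.205, for Hspa2. At an unadjusted p under 0.05, 4 members were higher in KO (Hspa2, Dnajb5, Hspb7 and Hspb8), which is 5.48% of them beside 6.78% of all genes, and 0 were lower, beside 4.21% of all genes (11% in either direction). The 3 KO samples lay wholly above the 3 WT samples for 8 members (11%, against 8.62% of all genes) and wholly below for 5 members (6.85%, against 8.09%), and 16.7% of all genes did either. The median difference over the members was -0.06 on the log2 scale, with -0.02 over all genes, and 43 members were below and 30 above WT (58.9% below, where 52.8% of all genes were, and 47.2% above). Dnajc6, which no WT array measured well above background, is counted among the 30. For 48 of the 73, or 65.8%, the difference was within 0.25 of 0, as it was for 62.5% of all genes. An exact permutation test of 3 samples against 3 cannot go under p = 0.1, so it adds only whether the groups overlapped. In these sorted bulk samples, less RNA of a gene per cell and fewer cells that carry it cannot be told apart.

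**Figure D1:**
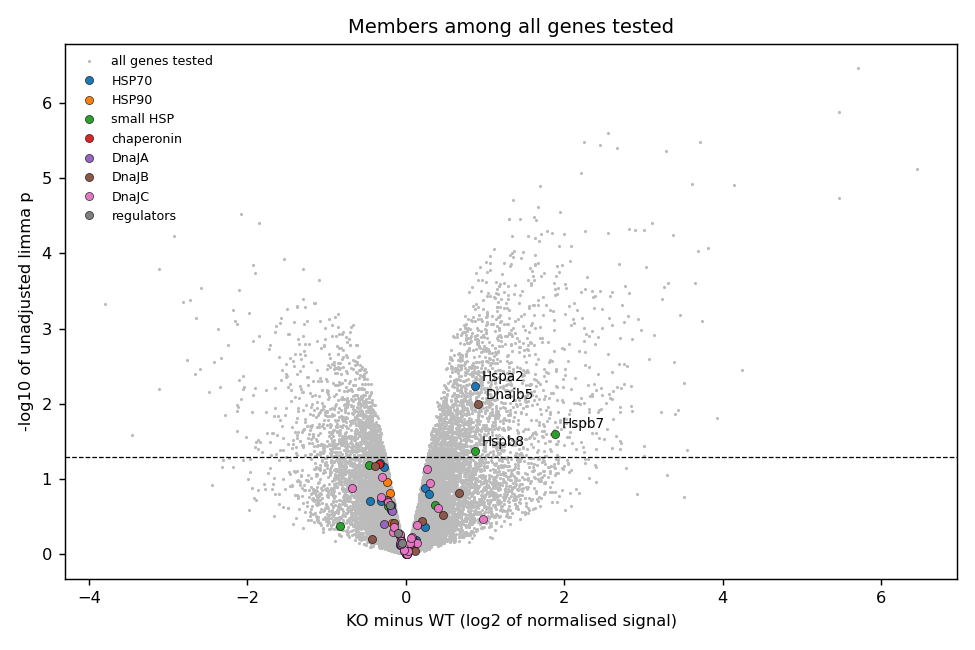
Each grey point is 1 of the 28364 genes tested, by its KO minus WT difference (x axis, log2 of normalised signal) and the negative log10 of its unadjusted limma p (y axis), and members are coloured by family. The dashed line marks an unadjusted p of 0.05, and 4 members lie above it, all on the side of higher signal in KO: Hspa2, Dnajb5, Hspb7 and Hspb8.

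**Figure D2:**
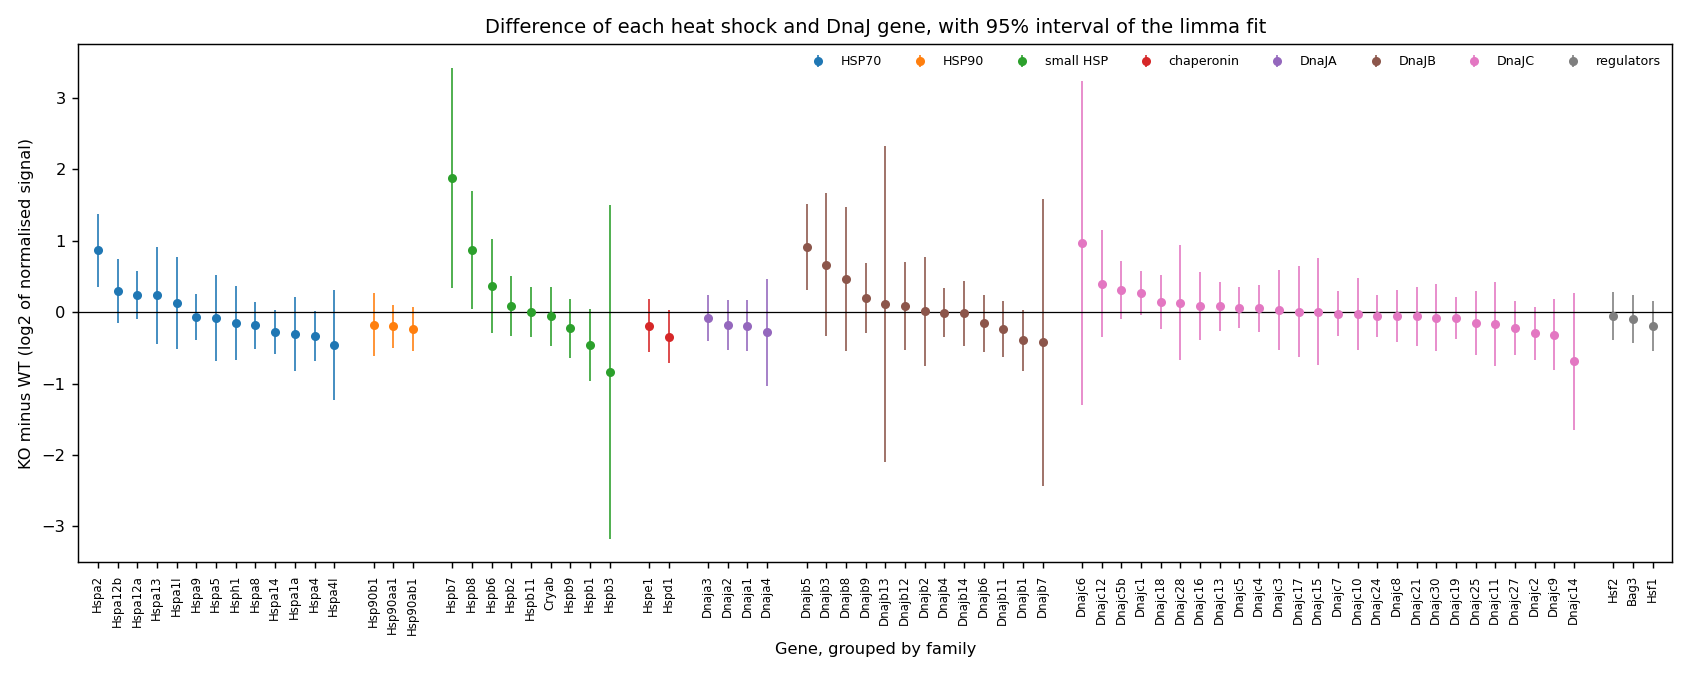
KO minus WT difference of each tested member (point, log2 of normalised signal) with the 95% interval of the limma fit (line), grouped by family and ordered within it. All 3 HSP90 genes, both chaperonins, all 4 DnaJA genes and all 3 regulators lie below 0, most of them by less than 0.25, and only the intervals of Hspa2, Dnajb5, Hspb7 and Hspb8 leave out 0.

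Among the HSP70 proteins, which bind short hydrophobic stretches of unfolded protein, 5 of 13 genes were above and 8 below WT, with a median of -0.08. That median was -0.22 on slide 1 and 0.00 on slide 2, and ran from -0.24 to -0.05 on leaving out a sample. The one with the smallest p was Hspa2, an HSP70 best known from male germ cells, where meiosis needs it. Its probe (mm9, chr12:77507769-77507828, plus strand) had log2 signals, counted from each array's 75th percentile, of -1.04, -1.42 and -1.06 in KO samples and -1.85, -1.86 and -2.42 in WT samples. Every KO sample was above every WT sample, and the means of -1.17 ± 0.21 in KO and -2.04 ± 0.32 in WT (SD, n = 3 each) differed by 0.87 ± 0.21 (SE, 95% interval 0.36 to 1.38), a signal 1.83-fold that of WT. Its limma adjusted p was 0.205, and it reached 0.023 only when all 9 arrays were entered as separate samples, a fit that takes repeats of a sample for replicates and calls 4.24% of all genes. The difference was 0.88 on slide 1 and 0.77 on slide 2, where the same KO samples were set against other WT samples.

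The HSP70 proteins that carry most of the work in the cytosol lay on the other side. Hspa8, the constitutive HSP70, had log2 signals of 6.09, 6.02 and 6.22 in KO samples and 6.46, 6.15 and 6.29 in WT samples. Hspa1a, the form that heat induces, had 3.39, 3.54 and 3.21 in KO samples and 3.96, 3.82 and 3.29 in WT samples. Both sets of samples overlapped: WT sample 2 of Hspa8 and WT sample 3 of Hspa1a fell among the KO values. The differences were -0.19 (95% interval -0.52 to 0.15) for Hspa8 and -0.31 (-0.83 to 0.21) for Hspa1a, so a rise of the inducible gene by more than 0.21 lay outside the interval. The neighbouring copy Hspa1b had no probe under that name, and the near-identical Hspa1a and Hspa1b transcripts may share a probe.

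The 3 HSP110 genes, exchange factors that open HSP70, were below WT by their means, none past the threshold. Hspa4, a member of the HSP110 branch, had log2 signals of 2.88, 3.05 and 3.27 in KO samples and 3.43, 3.45 and 3.30 in WT samples. Its groups did not overlap, though KO sample 3 and WT sample 3 nearly touched, and the difference was -0.33 ± 0.14 (SE, limma adjusted p = 0.483). Another 2 Hspa4 probes gave only -0.10 and -0.01, so the result rests on the brightest probe. Hsph1, the heat-inducible HSP110 (Hsp105), had 4.57, 4.64 and 5.14 in KO samples and 5.09, 4.65 and 5.06 in WT samples. KO sample 3 was the highest of the 6, and the difference of -0.15 lay within an interval of -0.67 to 0.36. Hspa4l, the third HSP110 gene and one best known from testis, was at -0.46 ± 0.31 (SE).

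A pair of partners on the ribosome lay on the same side of WT. Hspa14 and Dnajc2 form the ribosome-associated complex of mammals, which meets proteins as they are made, and Dnajc2 is also known to displace Polycomb repressive complex 1 from ubiquitinated histone H2A. Hspa14 had log2 signals of 0.83, 0.86 and 0.60 in KO samples and 1.0, 1.03 and 1.08 in WT samples. Dnajc2 had 0.23, 0.24 and -0.16 in KO samples and 0.36, 0.46 and 0.38 in WT samples. In both genes every KO sample was below every WT sample and KO sample 3 was lowest. The differences were -0.28 ± 0.12 for Hspa14 and -0.30 ± 0.15 for Dnajc2 (SE), with limma adjusted p of 0.503 and 0.554.

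None of the remaining HSP70 relatives passed the threshold. Hspa12b, an atypical HSP70 known from endothelial cells, had log2 signals of 0.53, -0.06 and 0.02 in KO samples and -0.14, -0.09 and -0.17 in WT samples. Its groups did not overlap, and KO sample 1 was the highest. That sample also had the highest median of the endothelial list, 1.73 relative to the WT mean of each gene, and their part was not tested. The difference was 0.29 ± 0.18 (SE, limma adjusted p = 0.65). Its relative Hspa12a was at 0.24 ± 0.14, Hspa13 of the microsomes at 0.24 ± 0.28 and the testis gene Hspa1l, next to Hspa1a in the genome, at 0.13 ± 0.26 (SE). In the endoplasmic reticulum, Hspa5 (BiP), the HSP70 that rises in the unfolded protein response, was at -0.08 (95% interval -0.68 to 0.52). In mitochondria, Hspa9 (mortalin), which pulls proteins through the import channel, was at -0.06 (-0.38 to 0.26).

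All 3 HSP90 genes were slightly below WT, with a median of -0.20. Hsp90aa1, the inducible cytosolic form, had log2 signals of 4.52, 4.57 and 4.62 in KO samples and 4.90, 4.66 and 4.74 in WT samples. Its KO samples lay close together and just below the lowest WT sample, and the difference was -0.20 ± 0.12 (SE, limma adjusted p = 0.638). Hsp90ab1, the constitutive form, had 5.18, 5.19 and 5.39 in KO samples and 5.55, 5.37 and 5.54 in WT samples. KO sample 3 was just above WT sample 2, so the groups overlapped, and the difference was -0.24 (95% interval -0.55 to 0.07). Hsp90b1, the form of the endoplasmic reticulum (Grp94), was at -0.17 (-0.61 to 0.27). On slide 1 the 3 genes differed by a median of -0.29 and on slide 2, with 1 WT array, by -0.03.

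The mitochondrial chaperonin is a chamber of Hspd1 (Hsp60) closed by a lid of Hspe1 (Hsp10). Hspd1 had log2 signals of 3.12, 3.11 and 3.50 in KO samples and 3.55, 3.53 and 3.67 in WT samples. The groups did not overlap, but KO sample 3 came within reach of the WT samples, and the difference was -0.34 ± 0.15 (SE, limma adjusted p = 0.488). Hspe1 had 4.59, 4.57 and 4.90 in KO samples and 4.99, 4.72 and 4.92 in WT samples. KO sample 3 exceeded WT sample 2, so the groups overlapped, and the difference was -0.19 ± 0.15 (SE, limma adjusted p = 0.741). Other probes of Hspe1 gave -0.14 and -0.21. The median of the pair was -0.37 on slide 1 and -0.10 on slide 2.

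The chaperonin genes lie head to head and share a promoter, which is shown because it holds the letters that heat shock factors are known to bind. A heat shock element is a run of the unit GAA in alternating orientation, searched for here as GAANNTTCNNGAA and its reverse complement TTCNNGAANNTTC in windows from 250 bases before to 50 bases after each RefSeq gene start (build GRCm38.p6). The windows of Hspd1 (minus strand) and Hspe1 (plus strand) overlapped by 285 bases. In the Hspe1 window, chr1:55087898-55088197 on the plus strand, 2 overlapping matches began 89 and 84 bases before the start, and on the Hspd1 side the same bases began 144 and 139 bases before its start. Capitals mark the matched bases.
Hspe1 promoter: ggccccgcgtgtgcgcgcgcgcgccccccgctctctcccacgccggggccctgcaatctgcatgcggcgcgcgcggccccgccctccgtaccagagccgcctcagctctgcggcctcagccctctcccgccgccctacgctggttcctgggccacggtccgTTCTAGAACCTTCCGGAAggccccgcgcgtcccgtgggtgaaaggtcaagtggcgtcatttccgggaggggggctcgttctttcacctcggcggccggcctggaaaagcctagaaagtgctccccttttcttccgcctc
A window of this kind existed for 59 of the 75 members, and 4 of them held a match (Hspd1, Hspe1, Hsph1 and Dnajb6), while 0.662% of 27025 genes did. Hspa8, Hsp90aa1 and Cryab were among the members without a window, and the window of another Hspd1 start held no match. Hsph1 is shown as the other heat-inducible member with a match, chr5:149636287-149636586 on the minus strand, where it began 36 bases after the start.
Hsph1 promoter: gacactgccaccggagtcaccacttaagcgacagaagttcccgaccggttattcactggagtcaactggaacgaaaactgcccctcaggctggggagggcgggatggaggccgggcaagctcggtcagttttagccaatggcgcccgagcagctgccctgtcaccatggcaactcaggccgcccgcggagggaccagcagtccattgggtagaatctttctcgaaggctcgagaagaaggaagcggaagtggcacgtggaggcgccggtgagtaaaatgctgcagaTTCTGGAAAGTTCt
All 4 genes with a match were below WT, by -0.15 to -0.34, and 1 of them (Hspd1) lay wholly below, where 52.8% of all genes were below WT and 8.09% wholly below. Hspd1 and Hspe1 are counted here for the same bases, so the 4 are not separate observations. Of the 54 tested members with a window and no match, 30 were below WT, 2 wholly below and 7 wholly above, with a range from -0.83 to 1.88 and a median of -0.02. A match describes these letters only, and a member without one may carry a shorter or more distant element.

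The small heat shock proteins, holders of damaged protein, held both the highest and the lowest differences of all members, from -0.83 to 1.88, around a median of 0.00. Hspb7, known from heart and skeletal muscle where it binds filamin C, had the largest. Its probe (mm9, chr4:140980355-140980414, plus strand) had log2 signals of -1.57, -4.07 and -3.30 in KO samples and -4.51, -4.85 and -5.21 in WT samples. The groups did not overlap, and KO sample 1 was far above the rest. The means of -2.98 ± 1.28 in KO and -4.86 ± 0.35 in WT (SD, n = 3 each) differed by 1.88 ± 0.63 (SE, 95% interval 0.33 to 3.43), with a limma adjusted p of 0.357. Without KO sample 1 the difference was 1.17, the lowest on leaving out any sample. Over all samples it was 1.03 with normexp background correction and 1.03 with the deposited processed values. Of the 13 muscle fibre genes tested, KO sample 1 was the highest of the 6 samples for 7 and the lowest for 5. Tnnt3, a fast troponin, had 2.60, -0.01 and -0.68 in KO samples and -0.35, -0.51 and -0.45 in WT samples. Myh2, a fast myosin, had -0.27, -3.01 and -3.18 in KO samples and -4.52, -2.94 and -3.38 in WT samples. Tnnc2, Tnni2 and Mb had 1.94, 1.68 and 0.42 in KO sample 1, and at most -0.71, -0.10 and -0.85 elsewhere. Other fibre genes ran the opposite way, among them Ttn (titin), with -0.56, 0.19 and 0.32 in KO samples and 0.32, -0.47 and 0.59 in WT samples. For Ttn, KO sample 1 was only just below WT sample 2, while Myh4 had -4.82 in KO sample 1 and at least -3.55 elsewhere. Fibre genes were thus mixed in direction and in size in the sample where Hspb7 was highest, and their part in its difference was not tested.

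Hspb8 and Bag3 form a complex that hands damaged filament proteins to autophagy. Hspb8 (mm9, chr5:116859063-116859122, minus strand) had log2 signals of -0.88, -0.91 and -0.40 in KO samples and -1.02, -2.26 and -1.51 in WT samples. The groups did not overlap, although WT sample 1 was close to the KO values, and the means of -0.73 ± 0.29 in KO and -1.60 ± 0.62 in WT (SD, n = 3 each) differed by 0.87 ± 0.34 (SE, 95% interval 0.04 to 1.69, limma adjusted p = 0.432). On slide 1 the difference was 0.57 and on slide 2 it was 1.5. Bag3 had log2 signals of 4.03, 4.12 and 4.33 in KO samples and 4.36, 4.28 and 4.12 in WT samples, a difference of -0.10 (95% interval -0.43 to 0.24) and its groups overlapped.

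Hspb1 (Hsp27, a guard of actin filaments) had log2 signals of 3.35, 3.71 and 3.77 in KO samples and 4.38, 4.08 and 3.76 in WT samples. KO sample 3 and WT sample 3 were level, so the groups overlapped, and the difference was -0.46 ± 0.21 (SE, 95% interval -0.97 to 0.04, limma adjusted p = 0.494). It was -0.49 on slide 1 and -0.44 on slide 2. Cryab, a companion of desmin in muscle, was at -0.06 (-0.47 to 0.35) and its genomic neighbour Hspb2, known to bind a muscle kinase, at 0.08 (-0.33 to 0.50). Hspb6, the Hsp20 of smooth and striated muscle, was at 0.37 ± 0.27, with KO sample 1 the highest. It had -0.14 where the other KO samples had -0.72 and -1.06 and the WT samples -1.24, -0.73 and -1.06. Hspb11, which despite its name is known as a protein of cilia transport, was level at 0.00 ± 0.14, and the testis gene Hspb9 was at -0.22 ± 0.17 (SE). Hspb3 was well above background on 2 KO arrays and 1 WT array only, and its difference of -0.83 ± 0.96 (SE) rests on values near background.

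**Figure D3:**
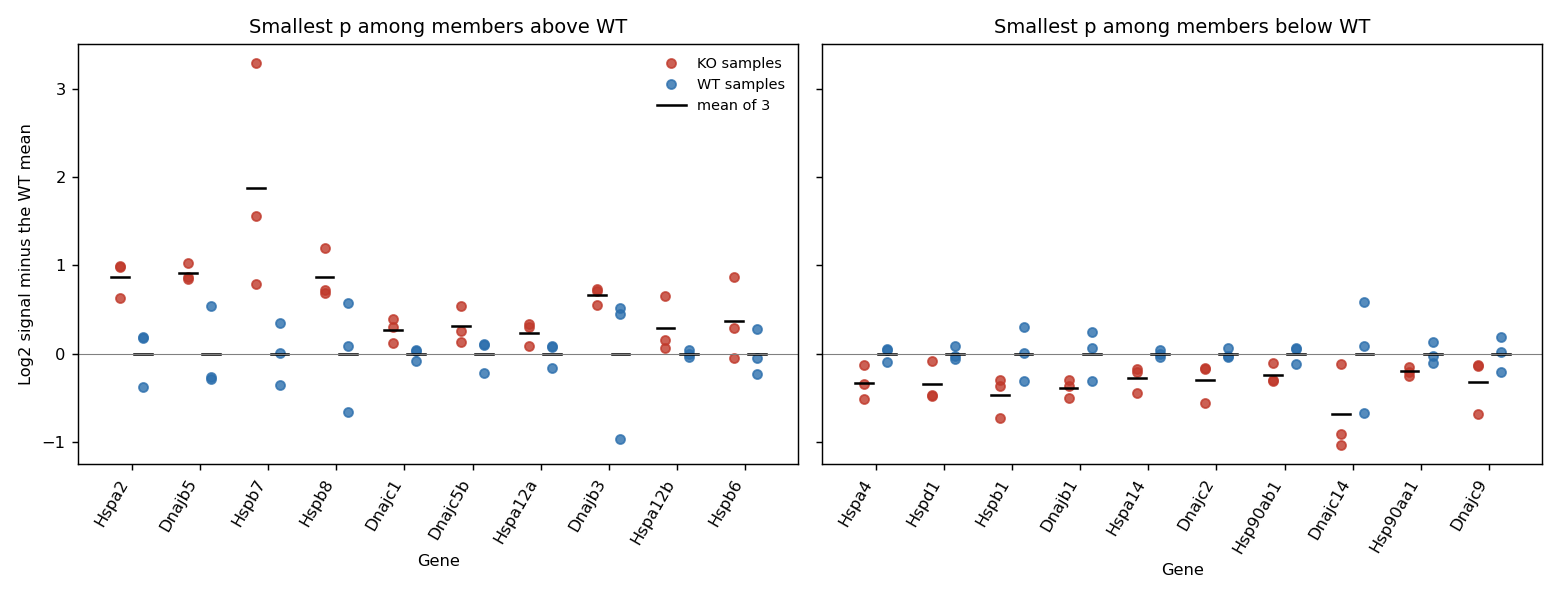
Log2 signal of each sample minus the WT mean of the gene (y axis), with KO samples in red left of WT samples in blue and the mean of 3 as a bar, for the 10 members with the smallest p above WT (left) and below WT (right). Hspb7 has 1 KO sample far above the others, and on the right KO and WT samples overlap in 5 of the 10 genes.

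DnaJ proteins carry a J domain that makes HSP70 hydrolyse ATP, and over all 43 tested the median difference was -0.02, with 20 above and 23 below WT. All 4 DnaJA genes, close relatives of the bacterial DnaJ, were below WT by a small margin, with a median of -0.18. Dnaja1, which works with Hspa8 in the cytosol, had log2 signals of 3.69, 3.71 and 4.04 in KO samples and 4.11, 3.91 and 3.98 in WT samples. KO sample 3 exceeded both WT samples 2 and 3, and the difference was -0.19 (95% interval -0.54 to 0.17). Dnaja2, also cytosolic, was at -0.18 (-0.53 to 0.17) and the mitochondrial Dnaja3 (Tid1) at -0.08 (-0.40 to 0.24). Dnaja4 was at -0.28 ± 0.31 (SE) by its brightest probe and -0.85 by another, the largest gap between probes of a member among those above background.

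In the DnaJB class, 7 of 13 genes were above and 6 below WT, with a median of 0.01. Dnajb5 (mm9, chr4:42971494-42971553, plus strand), linked in heart muscle cells to the export of class II histone deacetylases from the nucleus, had log2 signals of -1.52, -1.37 and -1.55 in KO samples and -2.67, -1.85 and -2.66 in WT samples. The KO samples were tightly grouped above all WT samples, of which WT sample 2 came nearest. The means of -1.48 ± 0.10 in KO and -2.39 ± 0.47 in WT (SD, n = 3 each) differed by 0.91 ± 0.25 (SE, 95% interval 0.31 to 1.52), a signal 1.88-fold that of WT, with a limma adjusted p of 0.255. As 9 separate arrays it came to an adjusted p of 0.035 in limma. The difference was 1.05 on slide 1 and 0.51 on slide 2, where the only WT array is that of WT sample 2.

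Dnajb1 (Hsp40), the usual partner of heat-induced HSP70, pointed the other way. Its log2 signals were 4.94, 5.0 and 4.80 in KO samples and 5.55, 5.37 and 5.0 in WT samples. KO sample 2 was level with WT sample 3, and the difference was -0.39 ± 0.17 (SE, 95% interval -0.82 to 0.04, limma adjusted p = 0.496). It was -0.34 on slide 1 and -0.47 on slide 2. Dnajb4, another heat-inducible partner of HSP70, was level at 0.00 (-0.35 to 0.34), and Dnajb6, known for holding back protein aggregation, was at -0.15 (-0.55 to 0.25), with its other probes at -0.13, -0.08 and -0.04. In the endoplasmic reticulum, Dnajb9 (ERdj4) was at 0.20 ± 0.20 and Dnajb11 (ERdj3) at -0.24 ± 0.16 (SE). Genes known mainly from testis were dim and scattered. Dnajb3 lay apart at 0.67 ± 0.41, with WT sample 3 at -3.00 beside -1.58 and -1.51, while Dnajb7 was at -0.42 ± 0.82, Dnajb8 at 0.47 ± 0.41 and Dnajb13 at 0.11 ± 0.90 (SE).

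The DnaJC class is the broadest, and its members share little but the J domain. Of 28 genes, 26 were tested, 13 above and 13 below WT, with a median of -0.01. Dnajc5g was not well above background on any array and Dnajc22 on 1 only, and Dnajc6 (auxilin, which uncoats clathrin vesicles) was above background on 3 KO arrays and 0 WT arrays. Dnajc6 thus passed the filter through KO arrays alone, and it is counted among the 13 above WT. Dnajc1, a J protein of the endoplasmic reticulum membrane, had log2 signals of 1.94, 2.13 and 2.22 in KO samples and 1.75, 1.85 and 1.87 in WT samples. The groups did not overlap but KO sample 1 stood close to the WT samples, and the difference was 0.27 ± 0.13 (SE, limma adjusted p = 0.514). Dnajc5b, a relative of the vesicle protein Dnajc5, had -4.11, -4.52 and -4.39 in KO samples and -4.54, -4.54 and -4.86 in WT samples. KO sample 2 lay just above WT samples 1 and 2, and the difference was 0.31 ± 0.17 (SE, limma adjusted p = 0.586). A second Dnajc5b probe was below background.

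Dnajc9, which works with HSP70 on histones H3 and H4, had log2 signals of 3.43, 3.45 and 2.89 in KO samples and 3.59, 3.37 and 3.76 in WT samples. The groups overlapped. KO sample 3 was the lowest, and it was also the sample furthest below WT in the mitosis list, whose median over genes was -1.0, -0.44 and -1.62 in KO samples 1, 2 and 3, though their part was not tested. The difference of Dnajc9 was -0.32 ± 0.20 (SE, 95% interval -0.81 to 0.18). Dnajc14, known for the export of receptors from the endoplasmic reticulum, was dim and variable at -0.69 ± 0.39 (SE), with -0.58 by its other probe. The size of the Dnajc6 difference is not given, since no WT array measured it above background. Dnajc12 was at 0.40 ± 0.31, Dnajc27 at -0.22 ± 0.15, Dnajc11 at -0.17 ± 0.24 and Dnajc25 at -0.15 ± 0.18 (SE), all with overlap. Apart from these and from Dnajc1, Dnajc2 and Dnajc5b, the DnaJC genes tested lay between -0.08 and 0.14. Dnajc19, of the mitochondrial import motor, was at -0.08 (95% interval -0.38 to 0.21) and Dnajc5 (cysteine string protein) at 0.06 (-0.22 to 0.35). Dnajc7, which bridges HSP70 and HSP90, was at -0.02 (-0.34 to 0.30), Dnajc8, known from splicing, at -0.06 (-0.42 to 0.31) and Dnajc3, which restrains the kinase PERK and its relatives, at 0.03 (-0.53 to 0.59).

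The factors that control the heat shock genes were below WT with 95% intervals that held 0. Hsf1 had log2 signals of 0.36, 0.31 and 0.66 in KO samples and 0.71, 0.52 and 0.70 in WT samples. KO sample 3 lay among the WT samples, and the difference was -0.20 ± 0.14 (SE, 95% interval -0.55 to 0.15, limma adjusted p = 0.704). Hsf2, which can pair with Hsf1, was at -0.05 (-0.39 to 0.28). Outside the members, Hsf4, a factor best known from the lens, had -1.09, -1.34 and -1.09 in KO samples and -0.84, -0.77 and -0.48 in WT samples. The groups did not overlap, and the difference was -0.48 ± 0.15 (SE, limma adjusted p = 0.328). A transcript level says nothing of how much Hsf1 protein was active.

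The genes best known to respond to heat were also taken as a list. Of the 14 on that list, 13 were tested and 12 were below WT, with Hspb8 the exception. The median difference was -0.19, with -0.02 over the 60 other members and -0.02 over all genes, where 52.8% were below WT. It was -0.13 with quantile normalization and -0.12 with the deposited processed values. The heat-inducible genes were also brighter, with sample medians of 4.03 to 4.38. Those of the other members were 0.19 to 0.40 and those of all genes -1.13 to -1.05. The part of brightness in the difference was not tested. None passed the test (limma, 0 called), 1 had an unadjusted p under 0.05 (Hspb8, higher), and 2 lay wholly below WT (Hspd1 and Hsp90aa1, 15.4%, beside 8.09% of all genes). By sample, the median of log2 signal minus the WT mean was -0.29, -0.28 and 0.03 in KO samples and 0.15, -0.11 and -0.01 in WT samples. KO samples 1 and 2 were thus lower than every WT sample, and KO sample 3 lay within the WT range. The median difference was -0.29 on slide 1 and -0.03 on slide 2, and slide 2 has only the array of WT sample 2. These genes share regulators, so they are not 13 separate observations.

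Cell dissociation is known to raise immediate early genes together with heat shock genes, and the immediate early genes are given beside them. Of 25 immediate early genes, 23 were above WT, with a median of 0.41, and 12 had an unadjusted p under 0.05 (48.0%, beside 6.78% of all genes), though 0 passed the adjusted threshold in limma. In 14 of them (56.0%, beside 8.62%) the KO samples lay wholly above the WT samples. Egr2 had log2 signals of 3.14, 2.89 and 2.90 in KO samples and 2.03, 2.47 and 2.07 in WT samples. Fos itself had 5.13, 4.84 and 4.82 in KO samples and 4.51, 4.76 and 4.65 in WT samples. Relative to the WT mean of each gene, the median of the list was 0.52, 0.33 and 0.33 in KO samples 1, 2 and 3. All 3 KO samples were above the WT samples, at -0.10, 0.06 and 0.02, and the sign was the same on slide 1 (0.48) and slide 2 (0.32). The same KO samples lay on both slides. Genes that rise together are not 25 separate observations. The part of dissociation, or of other cells in the samples, in these values was not tested.

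**Figure D4:**
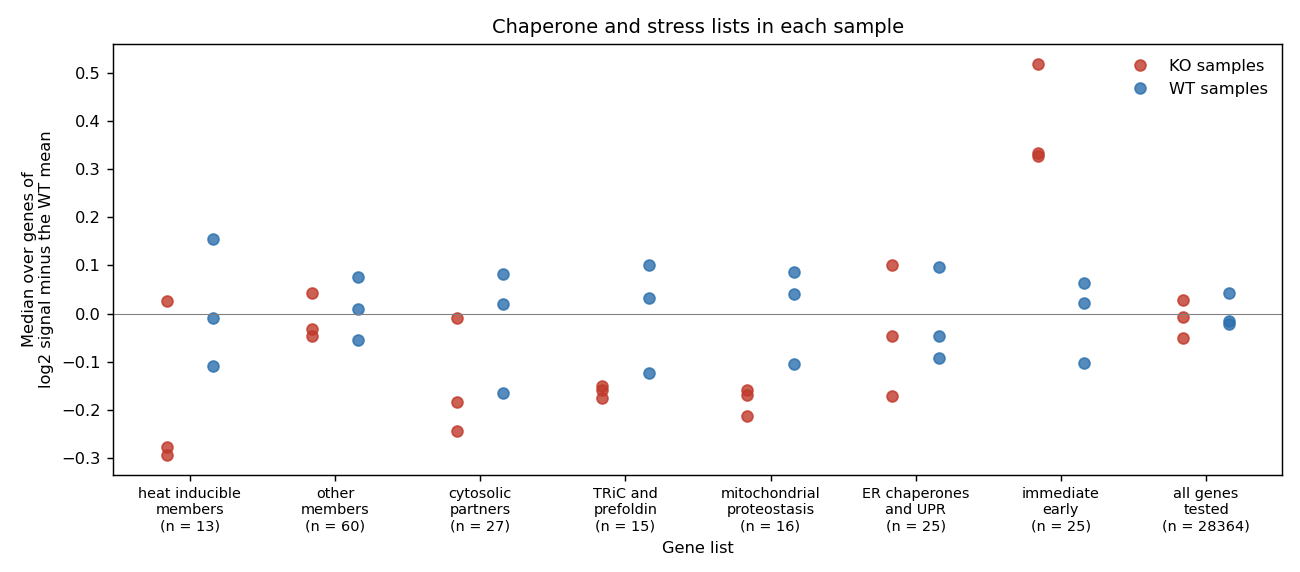
Median over the genes of each list of log2 signal minus the WT mean of the gene (y axis), for each KO sample (red, left) and WT sample (blue, right). The immediate early genes lie above the WT samples in all 3 KO samples, the heat-inducible members below them in 2 of 3 KO samples, the TRiC and prefoldin and the mitochondrial genes just below them in all 3, and all genes tested lie near 0.

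The partners of these chaperones were also mostly below WT by small amounts. Of 27 cytosolic partners of HSP70 and HSP90, 22 were below WT (81.5%, beside 52.8% of all genes), with a median of -0.15, and 0 passed the adjusted threshold in limma. By sample the median was -0.18, -0.24 and -0.01 in KO samples and 0.08, -0.16 and 0.02 in WT samples, so KO sample 3 lay above WT sample 2. The median was -0.24 on slide 1 and -0.02 on slide 2. These partners were also brighter, with sample medians of 2.15 to 2.38 beside -1.13 to -1.05 for all genes. The part of brightness in their difference was not tested. Bag2, an inhibitor of the ubiquitin ligase that marks HSP70 clients, had log2 signals of -1.62, -1.49 and -1.43 in KO samples and -1.02, -0.96 and -0.70 in WT samples. Its groups lay clearly apart, with a difference of -0.62 ± 0.14 (SE, limma adjusted p = 0.171). Bag1, an exchange factor that leads HSP70 to the proteasome, was also apart at -0.50 ± 0.20 (SE, limma adjusted p = 0.443). Stip1 (Hop), which joins HSP70 to HSP90, was at -0.36 ± 0.24 and Ahsa1, which speeds up the HSP90 ATPase, at -0.34 ± 0.30 (SE), both with overlap.

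Fkbp5 lay on the other side. It is an HSP90 partner of steroid receptors that glucocorticoids induce, and its log2 signals were 1.68, 1.61 and 1.90 in KO samples and 0.95, 1.04 and 1.01 in WT samples. All KO samples were above all WT samples by more than the spread within either group, and the difference was 0.73 ± 0.13 (SE, limma adjusted p = 0.11). Fkbp4, its relative in the same receptor complexes, was at -0.33 ± 0.29 (SE).

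Other folding machines were below WT by a like margin. Of the 15 TRiC and prefoldin genes, which fold actin and tubulin, 12 were below WT with a median of -0.18, and 5 lay wholly below (33.3%, beside 8.09%). Cct3, a TRiC subunit, had 2.92, 2.81 and 3.13 in KO samples and 3.52, 3.18 and 3.49 in WT samples, a difference of -0.44 ± 0.16 (SE, limma adjusted p = 0.384). Of the 16 other mitochondrial chaperones and proteases, 13 were below WT with a median of -0.17, and 7 lay wholly below (43.8%). Clpb, a mitochondrial disaggregase, had log2 signals of 3.26, 3.39 and 3.45 in KO samples and 3.77, 3.77 and 3.93 in WT samples. Its groups lay apart by -0.45 ± 0.12 (SE, limma adjusted p = 0.248). Trap1, the HSP90 of mitochondria, was apart at -0.51 ± 0.17 and the protease Lonp1 at -0.28 ± 0.11 (SE), with limma adjusted p of 0.336 and 0.428. By slide, the median of the TRiC and prefoldin genes was -0.24 and -0.02, and that of the mitochondrial genes -0.22 and -0.13, for slides 1 and 2. By sample, the TRiC and prefoldin median was -0.16, -0.17 and -0.15 in KO samples and 0.03, -0.12 and 0.10 in WT samples. Sample medians of the signal itself were 2.93 to 3.18 for the TRiC and prefoldin genes and 1.77 to 2.12 for the mitochondrial genes. For all genes they were -1.13 to -1.05, and the part of brightness was not tested.

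Genes of the endoplasmic reticulum were more evenly split. Of the 25 chaperone and unfolded protein response genes, 14 were below and 11 above WT, with a median of -0.05, 0 called in limma and 0 with an unadjusted p under 0.05. Ddit3 (CHOP) was at 0.01 ± 0.16, Xbp1 at 0.04 ± 0.17 and Atf4 at 0.24 ± 0.12 (SE). Atf4 was the only gene of the list whose groups did not overlap, with 4.43, 4.36 and 4.24 in KO samples and 4.03, 4.19 and 4.09 in WT samples.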

How the data were processed

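The authors deposited 9 scanner files of 1-colour arrays with linear spot intensity. Agilent Feature Extraction 10.7.3.1, per the file headers, had subtracted the background and corrected spatial trends. A further deposited table, log2 by the range of its values and made by a method that is not stated, served as an alternative. Its values correlated at 0.999976 or more with those of the same array after normexp background correction and quantile normalization. It is thus not independent of the normexp alternative.

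For each array, log2 of the processed signal was counted from the array's 75th percentile (non-control spots). Outlier spots were left out, repeat spots averaged, and 35 values left empty by this were replaced by the mean of the probe elsewhere. A probe had to be well above background on 3 of the 9 arrays, a filter that favours genes seen on the 6 KO arrays alone over those seen on WT arrays alone. Gene names follow a RefSeq table (GRCm38.p6), while probe positions follow the array design (mm9). Groups were compared over 3 KO and 3 WT samples in limma 3.58.1 (lmFit, then eBayes; R 4.3.3), and p was adjusted over all 28364 genes. The fit was tested on simulated data. Python 3.11.15, pandas 2.3.3, numpy 2.4.6 and matplotlib 3.10.9 were used for counts and plots, and promoter sequences came from RefSeq.

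The members, the lists and the alternatives were chosen with earlier results of these data known. The text names the 10 members with the smallest p in each direction, and 13 members known for their role in the heat shock response or as the main chaperone of a compartment. Other members and list genes were chosen after their values were seen.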

Additional observations from a re-analysis of the deposited data

How the results depend on the processing

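None of the members passed the adjusted threshold under any alternative but one: with the 9 arrays as separate samples, 2 did (Hspa2 and Dnajb5). The count over all genes was 293 with normexp, 239 with the authors' table, 13 with no filter, 104 with probes above background on all arrays, 4 with slide as a block, 2 on slide 1, 1202 with 9 arrays, 546 with sample as a random block, 367 with slide added to it, and 0 to 9 on leaving out a sample, against 40. Members lower at an unadjusted p under 0.05 numbered 2 with normexp, the authors' table, slide 1 and the random block, 3 with slide added, 7 with 9 arrays and 0 to 3 on leaving out a sample, against 0. Members higher numbered 2 on slide 1 and 2 to 4 on leaving out a sample (without WT sample 2 or 3), against 4. The median of all members was 0.029 on slide 2. With replicate number as a block, all genes gave 0 calls, members 0 and lower members at an unadjusted p under 0.05 numbered 1. The deviations of same-numbered samples from their group means correlated at -0.04, 0.03 and 0.01. No pairing by number was thus seen, though with 3 samples in a group this check cannot exclude it.

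Of 33 named members, 24 kept their direction in all 20 alternatives. Dnajb4 turned to 0.034 with quantile normalization, 0.022 with the authors' table, 0.038 with slide as a block, 0.0081 with slide and sample as blocks, 0.13 on slide 2 and 0.0026 without the KO array labelled wild type. Hspa5 turned to 0.018 with slide as a block and 0.36 on slide 2, Hsf2 to 0.013 with the authors' table, and Hspa12a to -0.013 on slide 1. On slide 2 Hsph1 was at 0.13, Cryab at 0.086, Hspe1 at 0.036 and Hsp90b1 at 0.070. On leaving out a sample, Dnajb4 ranged from -0.089 to 0.080, Hspa5 from -0.27 to 0.032, Hsf2 from -0.14 to 0.0035, Cryab from -0.18 to 0.058 and Hspa9 from -0.13 to 0.024. The cause of these changes was not tested. The number of samples and, for Dnajc6, Hspb3 and the testis genes, signal near background limit precision. No p was computed on slide 2, which has 1 WT array.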

Other observations

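Members that are neighbours in the genome did not always have a difference of the same sign, though the 95% interval of each held 0. By sample, Cryab and Hspb2 were both lowest in KO sample 1 and highest in KO sample 3. Hspa1a and Hspa1l were both highest in WT sample 1. Cryab and Hspb2, next to each other on chromosome 9, were at -0.06 and 0.08, and Hspa1a and Hspa1l on chromosome 17 were at -0.31 and 0.13, while the head-to-head genes Hspd1 and Hspe1 were at -0.34 and -0.19.

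Of the 75 genes, 22 had more than 1 probe. Among their 28 other probes above background, 22 had the same sign as the probe used and 6 the opposite sign, with a median gap of 0.12.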
